A study of Mus musculus with 16 samples.

Results

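Glutathione S-transferases (GSTs) join the tripeptide glutathione to reactive electrophiles, and glutathione peroxidases spend glutathione to reduce hydrogen peroxide and lipid hydroperoxides. Glutathione reductase returns the oxidised dimer to glutathione with electrons from NADPH. In the intestine these enzymes stand between the epithelium and dietary electrophiles, bile-derived lipids and oxidants made during inflammation. The expression of 10 such genes was examined in mouse terminal ileum. The 10 genes were taken by the names of their transcripts from the 23299 genes of the expression table, and comprised 6 GSTs (Gsta1, Gsta4, Gstm1, Gstm3, Gstp1 and Gstk1), 3 peroxidases (Gpx1, Gpx2 and Gpx4) and the reductase Gsr. Together they had 32 transcripts, and all 10 were among the 19042 genes that reached an RPKM (reads normalised to the length of the transcript and to the size of the library) of at least 1 in at least 2 libraries. The genes were taken by name and not by a measured value, although they were chosen with earlier results of these data known.

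Bulk terminal ileum RNA was sequenced from C57BL/6 mice of both sexes that were either wild type (WT, Tas1r3+/+, littermate controls) or lacked the sweet and umami taste receptor subunit Tas1r3 throughout the body (Tas1r3-/-, the Tas1r3tm1Csz line backcrossed to C57BL/6). Mice of each genotype received for 10 weeks either a normal diet (ND, D12450J pellets with plain water) or a Western diet (WD, high-fat pellets D12492 labelled 60% with a 30% sugar solution to drink). The comparisons ask what the WD does to these genes in each genotype, and what the loss of Tas1r3 does on each diet. Of 16 labelled columns, 13 libraries entered the comparisons, with n = 4 for ND-fed WT, n = 2 for ND-fed Tas1r3-/-, n = 4 for WD-fed WT and n = 3 for WD-fed Tas1r3-/- mice.

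The female columns of the ND-fed Tas1r3-/- group equalled weighted means of the male columns of that group in all but 17 and 18 of 59258 transcripts, none of them of these genes, and were left out, so that group held males only. The female columns of the WD-fed Tas1r3-/- group were related to each other and were averaged into 1 library. Tas1r3 itself was at 1.80 to 6.27 RPKM in WT libraries and at 0.000726 to 0.00452 RPKM in Tas1r3-/- libraries, where 1 read was worth 0.0196 to 0.0359 RPKM. The implied depth was 7.00e+06 to 1.24e+07 reads, and 1 read on a transcript of 1 kb was worth 0.0692 to 0.139 RPKM. The columns summed to 817011 to 819916 RPKM on the ND and to 542371 to 672933 RPKM on the WD, so tests were run on values scaled between libraries (scaling factors of 0.962 to 1.41 on the ND and 0.693 to 1.01 on the WD). No marker of ileal enterocytes or of goblet and Paneth cells was at 0 in any group. In such bulk tissue, fewer cells of a type and less RNA per cell cannot be told apart. The study describes each transcriptome as that of an individual mouse, which the labels do not state and which the related columns above do not show, and p-values measure the spread between these libraries.

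The 3 peroxidases are selenoproteins: a TGA codon inside the coding sequence, which elsewhere ends translation, is read as selenocysteine, the residue that reacts with the peroxide. The codon with its 30 flanking bases on either side is shown because it sets these genes apart from the GSTs and Gsr and because the peroxidases dominate the levels given next. Sequences are from GRCm38 with the GENCODE M21 annotation, read 5′ to 3′ on the coding strand, with the selenocysteine codon in capitals. It is codon 47 of 201 in Gpx1-201 (chr9:108339451-108339453, plus strand, exon 1 of 2), codon 40 of 190 in Gpx2-201 (chr12:76795256-76795258, minus strand, exon 1 of 2) and codon 73 of 197 in Gpx4-202 (chr10:80054737-80054739, plus strand, exon 3 of 7).
Gpx1: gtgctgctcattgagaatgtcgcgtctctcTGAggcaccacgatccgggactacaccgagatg
Gpx2: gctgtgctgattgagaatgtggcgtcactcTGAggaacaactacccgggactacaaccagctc
Gpx4: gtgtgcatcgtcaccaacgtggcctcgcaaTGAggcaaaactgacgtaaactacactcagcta
Over these 63 bases Gpx1 and Gpx2 shared 49 (77.8%), whereas Gpx4 shared 35 (55.6%) with each of them. Over the aligned bases of their coding sequences, Gpx1-201 and Gpx2-201 were 68.1% identical (568 bases). Gpx1-201 and Gpx4-201, another coding transcript of Gpx4 than the one shown, were 52.6% identical (601 bases).

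Summed over all transcripts, the peroxidases Gpx2 and Gpx1 and the GST Gstp1 had the highest means, in that order, in all 4 groups. In coding transcripts alone Gpx2 was below Gpx1 in every library, at 0.124 to 0.489 times its level. Only 6.42 to 11.6% of Gpx2 was assigned to its coding transcript, a split that few reads can settle, as described below. Gpx2 (chr12:76792333-76795554, minus strand), the peroxidase of the gastrointestinal epithelium, averaged 723 RPKM over the 13 libraries, higher than 99.5% of the tested genes. Gpx1 (chr9:108338903-108340343, plus strand), the cytosolic peroxidase found in most cells, averaged 317 RPKM, and Gstp1 (chr19:4035407-4037985, minus strand), the pi-class GST, averaged 75.5 RPKM. Gpx1 and Gpx2 together held 66.5 to 88.3% of the summed RPKM of the 10 genes per library, and the 10 genes held 0.115 to 0.298% of all RPKM. The ranges of Gpx2 and Gpx1 overlapped in both WT groups and were apart in both Tas1r3-/- groups, whereas those of Gpx1 and Gstp1 were apart in every group. The ranges of Gstp1 and Gstm1, apart on the ND, overlapped on the WD in both genotypes.

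The middle of the order was held by Gstm1 (chr3:108012255-108017973, minus strand; mu-class GST, 51.0 RPKM), Gpx4 (chr10:80047166-80056439, plus strand, 43.4 RPKM), which reduces phospholipid hydroperoxides within membranes, and Gsr (chr8:33652523-33698163, plus strand, 29.8 RPKM). The ranges of Gstm1 and Gpx4 overlapped in all groups but the ND-fed Tas1r3-/- group, and the mean of Gpx4 was above that of Gstm1 in the WD-fed Tas1r3-/- group only. Lower levels were found for Gsta4 (chr9:78182774-78209349, plus strand, 15.8 RPKM), an alpha-class GST that acts on the lipid peroxidation product hydroxynonenal, and for its neighbour Gsta1 (chr9:78230656-78242684, plus strand, 12.1 RPKM). The mitochondrial and peroxisomal Gstk1 (chr6:42245935-42250447, plus strand) averaged 4.04 RPKM and Gstm3 (chr3:107963696-107969283, minus strand) 2.47 RPKM. Gsta4 and Gsta1 overlapped in all 4 groups, Gsta1 and Gstk1 were apart in all 4, and Gstk1 and Gstm3 overlapped on the ND and were apart on the WD.

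The genes differed in how evenly they were expressed. On the scaled log2 scale the SD over the 13 libraries was 0.89 for Gpx2, larger than that of 94.7% of the tested genes, and 0.71 for Gstm1. It was 0.25 for Gstp1, larger than that of 11.7% of genes, and 0.37 for Gpx4. In deposited RPKM Gstm1 spanned 7.97-fold over the libraries, Gpx2 6.28-fold, Gstp1 2.08-fold and Gpx4 1.92-fold.

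**Figure D1:**
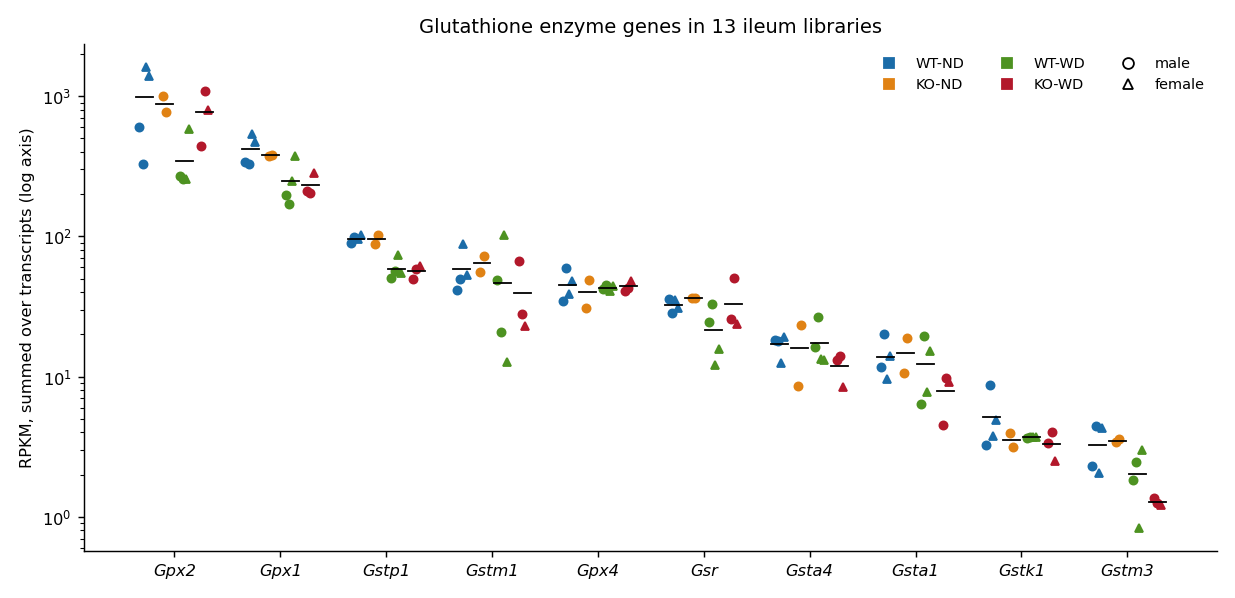
RPKM of the 10 genes (summed over transcripts, log axis, ordered by mean) in the 13 libraries, with circles for males, triangles for females and a bar for each group mean. Gpx2, Gpx1 and Gstp1 had the highest means in every group, and Gpx2 ranged from 257 to 1611 RPKM.

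Gpx2 was at 603 and 327 RPKM in the males and 1611 and 1390.3 RPKM in the females of the ND-fed WT group, and at 1003 and 767 RPKM in the ND-fed Tas1r3-/- males. On the WD it was at 271 and 258 RPKM in WT males, 257 and 586 RPKM in WT females, 442 and 1086 RPKM in Tas1r3-/- males and 795 RPKM in the averaged Tas1r3-/- females. The means were 983 ± 615 (SD, n = 4), 885 ± 167 (n = 2), 343 ± 162 (n = 4) and 774 ± 322 RPKM (n = 3) for ND-fed WT, ND-fed Tas1r3-/-, WD-fed WT and WD-fed Tas1r3-/- mice. The 3 lowest values were all WD-fed WT libraries, and the remaining library of that group, female 2, lay within the range of the ND-fed WT libraries.

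Gpx1 was at 339, 329.7, 535 and 473 RPKM in ND-fed WT libraries and at 374 and 382 RPKM in ND-fed Tas1r3-/- libraries. It was at 196, 169, 247 and 375 RPKM in WD-fed WT libraries (both males, then both females) and at 211, 204 and 282 RPKM in WD-fed Tas1r3-/- libraries. In deposited RPKM the genotypes overlapped on each diet.

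Gstp1 was at 89.5, 98.5, 95.1 and 102 RPKM in ND-fed WT and at 88.4 and 103 RPKM in ND-fed Tas1r3-/- libraries. On the WD it was at 50.3, 56.5, 73.4 and 55.0 RPKM in WT and at 49.5, 58.7 and 61.6 RPKM in Tas1r3-/- libraries. Every WD library lay below every ND library in deposited RPKM, while after scaling the WT groups overlapped. The WD columns summed to less RPKM as a whole, as given above.

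Gpx4 was at 34.3, 59.2, 38.6 and 48.0 RPKM in ND-fed WT, at 30.7 and 49.2 RPKM in ND-fed Tas1r3-/-, at 42.1, 45.1, 40.5 and 44.5 RPKM in WD-fed WT and at 40.9, 42.9 and 48.2 RPKM in WD-fed Tas1r3-/- libraries. The WD libraries of both genotypes lay within the range of the ND libraries. Gsr was at 35.6, 28.4, 35.0 and 31.0 RPKM in ND-fed WT and at 36.6 and 36.3 RPKM in ND-fed Tas1r3-/- libraries. On the WD Gsr was at 24.7 and 33.0 RPKM in WT males, 12.05 and 15.7 RPKM in WT females, 25.7 and 50.2 RPKM in Tas1r3-/- males and 23.6 RPKM in the averaged Tas1r3-/- females. Both WT females on the WD held the lowest Gsr values of the 13 libraries.

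Among the remaining GSTs, Gstm1 was at 41.2 to 88.6 RPKM in ND-fed WT, 55.7 and 72.7 RPKM in ND-fed Tas1r3-/-, 12.8 to 102 RPKM in WD-fed WT and 22.8 to 66.9 RPKM in WD-fed Tas1r3-/- libraries. The lowest and the highest Gstm1 value of all 13 libraries were thus both WD-fed WT females. Gstm3 was at 2.06 to 4.45, 3.41 and 3.57, 0.835 to 2.99 and 1.21 to 1.37 RPKM in the same order of groups. Gsta1 ranged from 9.58 to 20.3, 10.6 to 18.995, 6.36 to 19.4 and 4.55 to 9.85 RPKM, Gsta4 from 12.6 to 19.2, 8.56 to 23.3, 13.1 to 26.5 and 8.49 to 13.9 RPKM, and Gstk1 from 3.28 to 8.79, 3.15 to 3.96, 3.62 to 3.74 and 2.52 to 3.997 RPKM. The summed RPKM of the 6 GSTs was 166 to 212 in ND-fed WT, 171 to 225 in ND-fed Tas1r3-/-, 103 to 201 in WD-fed WT and 106 to 139 in WD-fed Tas1r3-/- libraries.

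Most of the RPKM of several of these genes was assigned to transcripts that the annotation does not call protein coding. Of Gpx2, 87.2 to 91.9% was assigned to Gpx2-202, a processed transcript of 1010 bases, and 6.42 to 11.6% to the coding Gpx2-201. All 50-base windows of Gpx2-202 occur in Gpx2-201 and 94.4% of those of Gpx2-201 occur in Gpx2-202, so few reads of this length can tell these transcripts apart. The processed transcript Gstm1-204 carried 55.9 to 88.6% of Gstm1, with 85.8% of its windows in the coding Gstm1-201. Gpx1 (81.2 to 87.9% coding), Gsr (74.6 to 100% in Gsr-201), Gsta4 and Gstm3 (1 coding transcript each) were carried mainly by coding transcripts.

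Gstp1 was split between the coding Gstp1-201 and Gstp1-203, a transcript of 423 bases with a retained intron. Gstp1-203 averaged 52.4 RPKM in ND-fed WT, 52.6 RPKM in ND-fed Tas1r3-/-, 21.3 RPKM in WD-fed WT and 12.4 RPKM in WD-fed Tas1r3-/- mice, and its share of the gene ran from 2.99 to 64.7% between libraries. Gstp1-201 averaged 32.0, 35.4, 25.9 and 34.4 RPKM in the same groups. The lower deposited Gstp1 level on the WD was therefore found mainly in the transcript with the retained intron, 83.4% of whose windows are also in Gstp1-201. Of the low-level Gstk1, 2.11 to 93.0% was assigned to Gstk1-203, which is annotated as a target of nonsense-mediated decay.

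**Figure D2:**
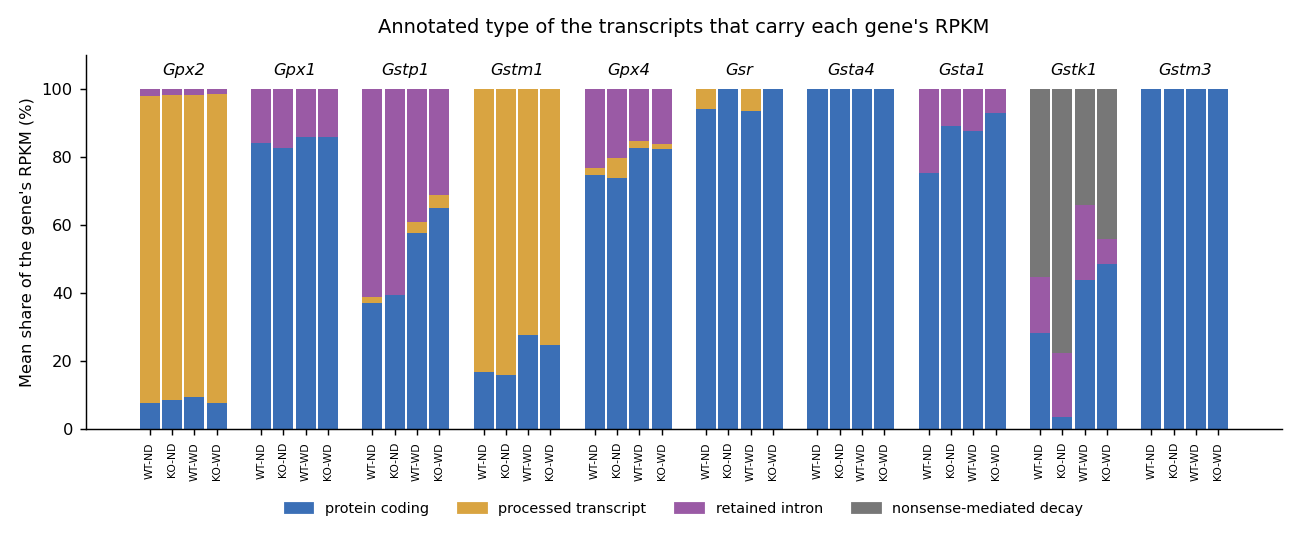
Mean share (%) of each gene's RPKM in transcripts of each annotated type, in the 4 groups. Gpx2 and Gstm1 were assigned mainly to processed transcripts in every group, and the coding share of Gstp1 was 37.1% in ND-fed WT, 39.4% in ND-fed Tas1r3-/-, 57.7% in WD-fed WT and 65.1% in WD-fed Tas1r3-/- mice.

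GST genes lie in clusters of near-identical copies, and several of these genes also have pseudogenes in the expression table. Of the 50-base windows of Gsta1, 90.5% occur in another gene (75.7% in Gm3776 and 46.6% in Gsta2), as do 35.7% of those of Gpx4 (Gpx4-ps2), 34.7% of those of Gstp1 (Gstp2 and, for 20.8%, Gstp-ps), 28.8% of those of Gstm3, 19.5% of those of Gstm1 and 5.97% of those of Gpx2 (Gpx2-ps1). None of the windows of Gsta4, Gstk1, Gpx1 and Gsr do. The levels of the other 6 genes depend on how reads were split between copies. These shares hold for stretches of 50 bases, and longer reads would be shared less often, so the share of reads affected was not measured. The coding sequences of Gstp1 and Gstp2 differed at 12 of 630 bases, those of Gsta1 and Gm3776 at 2 of 669, and those of Gpx2 and Gpx2-ps1 at 10 of 569 aligned bases. Stretches of 60 bases are shown for a GST and a peroxidase with a copy, chosen where the copies differ, with differing bases in capitals. They cover coding bases 1 to 60 of Gstp1-201 and Gstp2-201, and bases 20 to 79 of the Gpx2-201 coding sequence and of Gpx2-ps1.
Gstp1: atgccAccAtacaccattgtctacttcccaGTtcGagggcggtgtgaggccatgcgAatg
Gstp2: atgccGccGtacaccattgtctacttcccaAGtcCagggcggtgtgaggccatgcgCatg
Gpx2: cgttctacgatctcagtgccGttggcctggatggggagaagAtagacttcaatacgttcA
Gpx2-ps1: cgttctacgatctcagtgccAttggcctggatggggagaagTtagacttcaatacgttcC
The Gstp1 and Gstp2 stretches differ at 6 bases, of the 12 in the whole coding sequence, and the Gpx2 and Gpx2-ps1 stretches at 3 of 10.

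Some copies were listed above the gene itself. Gstp-ps averaged 359 RPKM (203 to 539), 3.59 to 5.67 times Gstp1 per library, and Gstp2 66.9 RPKM (39.8 to 108). Gpx4-ps2 averaged 225 RPKM (107 to 447), 2.38 to 11.6 times Gpx4. Gpx2-ps1 averaged 170.5 RPKM (33.6 to 560) and made up 10.7 to 25.8% of the sum of Gpx2 and its pseudogene. Gm3776 averaged 9.11 RPKM and Gsta2 4.01 RPKM beside the 12.1 RPKM of Gsta1.

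**Figure D3:**
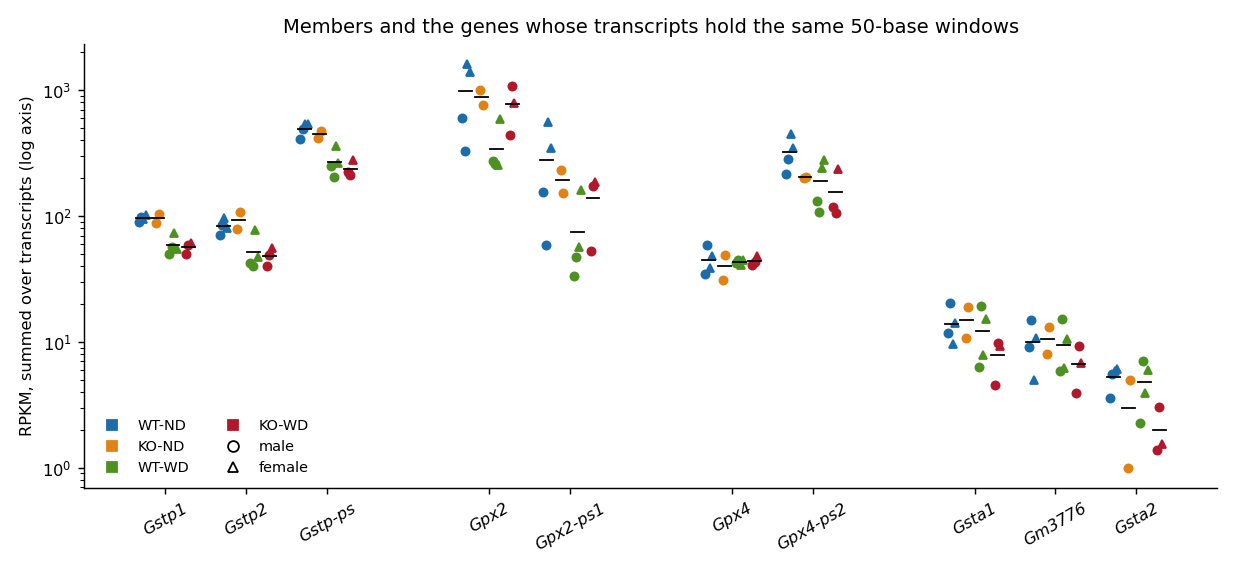
RPKM (log axis) of Gstp1, Gpx2, Gpx4 and Gsta1 beside genes that hold the same 50-base windows, in the 13 libraries (circles males, triangles females, bars group means). Gstp-ps and Gpx4-ps2 lay above Gstp1 and Gpx4 in every library, and Gpx2-ps1 lay below Gpx2.

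Tests were made with limma over all 19042 genes on log2(RPKM + 0.5) after scaling, with Benjamini-Hochberg adjustment, and a call required an adjusted p under 0.01 and a change of at least 2-fold. In the WT comparison of WD with ND, 0 of the 10 genes were called (0.00525% of all genes were) and 0 reached an adjusted p under 0.05 (0.116% of genes). At an unadjusted p under 0.05 the count was also 0, where 15.5% of all genes passed. Gpx2 had a log2 fold change of −0.88 (SE 0.517, 95% interval −2.01 to 0.24, limma adjusted p = 0.429), with 3 of 4 WD libraries below every ND library in deposited RPKM. Gstp1 had −0.26 (SE 0.175, interval −0.64 to 0.12, limma adjusted p = 0.491) and Gpx4 0.42 (SE 0.218, interval −0.05 to 0.89, limma adjusted p = 0.370). Gpx4 turned to −0.034 without scaling. The sum of Gpx4 and Gpx4-ps2 changed by −0.23 and Gpx4-ps2 alone by −0.37. That sum lay mostly in the pseudogene, at 2.38 to 11.6 times Gpx4 per library. The other 7 genes ran from −0.34 (Gpx1) to 0.43 (Gsta4), with no adjusted limma p under 0.479. On the scaled scale, the groups of none of the 10 genes were fully apart (4.2% of all genes were apart and higher on the WD, 6.3% apart and lower). Of the 10 genes, 4 were higher and 6 lower, with a median of −0.23 beside 0.02 for all genes. The intervals of 5 genes lay within a 2-fold change in either direction. Without scaling all 10 genes were lower on the WD, as the median of all genes shifted by −0.40, and Gstp1 (−0.72, limma adjusted p = 0.0119) and Gpx1 (−0.80, limma adjusted p = 0.0469) then passed an adjusted p of 0.05. In the protein-coding transcripts alone, Gstp1 was 0.27, in the other direction.

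In Tas1r3-/- mice the WD comparison likewise gave no call among the 10 genes (0% of all genes were called, and 0.00525% had an adjusted p under 0.05), and 0 of 10 had an unadjusted p under 0.05 (5.49% of all genes). The groups were apart for Gpx4, higher on the WD (10.8% of genes), and for Gstm3 and Gstp1, lower on the WD (10.1% of genes). Gpx4 had a log2 fold change of 0.57 (SE 0.281, interval −0.04 to 1.18, limma adjusted p = 0.905), Gstm3 of −0.85 (SE 0.464, interval −1.85 to 0.16, limma adjusted p = 0.925) and Gstp1 of −0.35 (SE 0.226, interval −0.84 to 0.14, limma adjusted p = 0.950). With 3 libraries against 2, an exact two-sided permutation test cannot go below 0.10, which Gpx4 and Gstm3 reached. Gpx2 had 0.13 with a wide interval (−1.32 to 1.58), and the other 6 genes ran from −0.50 (Gsta1) to 0.24 (Gstk1). Of the 10 genes, 5 were higher and 5 lower, with a median of −0.10 beside 0.00 for all genes. The sum of the RPKM of Gpx4 and Gpx4-ps2, which lay mostly in the pseudogene, changed by 0.04, and Gpx4-ps2 alone by −0.09. Without scaling 9 of the 10 were lower, with a shift of all genes by −0.35.

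On the WD, Tas1r3-/- was compared with WT. Gpx2 was higher in Tas1r3-/- mice by 1.29 on the log2 scale (2.45-fold, SE 0.558, interval 0.083 to 2.504, unadjusted limma p = 0.0381, adjusted p = 1.00, exact two-sided permutation p = 0.0857). Gsr was higher by 0.76 (1.69-fold, SE 0.315, interval 0.08 to 1.44, unadjusted limma p = 0.0318, adjusted p = 1.00, exact two-sided permutation p = 0.171). These were the 2 of 10 genes with an unadjusted p under 0.05 (2.65% of all genes had one), and neither passed the adjustment over all genes, where 0.0263% of genes had an adjusted p under 0.05 and 0.0105% were called. The scaled values of both genes overlapped between the genotypes, as those of all 10 did (1.55% of genes were apart and higher in Tas1r3-/-, 1.29% apart and lower). In deposited RPKM, 2 of 3 Tas1r3-/- libraries lay above every WT library for Gpx2 and 1 of 3 for Gsr. That Tas1r3-/- library, male 2, was the highest for both genes, and without it the differences were 1.02 for Gpx2 and 0.44 for Gsr. Gstp1 differed by 0.07 (SE 0.189, interval −0.34 to 0.48), a direction that turned to −0.05 without scaling, and the other 7 genes ran from −0.43 (Gsta1) to 0.15 (Gstm1). Of the 10 genes, 6 were higher and 4 lower, with a median of 0.08 beside −0.01 for all genes. Gpx2 was 1.00 (interval −0.16 to 2.15) in its coding transcript alone and 1.26 (interval −0.03 to 2.55) when summed with Gpx2-ps1, so that both intervals reached 0. Gsr, which has no near copy, was 0.86 (interval 0.05 to 1.67) in its coding transcript alone.

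The summed RPKM of 6 goblet and Paneth cell markers (Clca1, Itln1, Lyz1, Mptx2, Muc2 and Tff3) was 10483 to 11549 in WD-fed Tas1r3-/- and 4457 to 8374 in WD-fed WT libraries, without overlap, beside 7583 to 14457 in ND-fed WT and 10134 to 13116 in ND-fed Tas1r3-/- libraries. The sum of 6 ileal enterocyte markers (Anpep, Epcam, Fabp2, Fabp6, Slc10a2 and Vil1) was 1269 to 7209 in WD-fed Tas1r3-/- and 4368 to 12469 in WD-fed WT libraries, and 9889 to 15764 and 5301 to 8899 in ND-fed WT and Tas1r3-/- libraries. On the WD the goblet and Paneth sum was higher in Tas1r3-/- mice, as were Gpx2 and Gsr, but its members differed. Lyz1 alone was at 4656 to 5466 RPKM in WD-fed Tas1r3-/- and at 1105 to 2191 RPKM in WD-fed WT libraries. Tff3 overlapped, at 1206 to 3508 and 1658 to 4443 RPKM, as did Clca1, at 76.2 to 397 and 198 to 420 RPKM. After scaling, 4 of the 6 markers were higher and 2 lower, and 3 were apart and higher (1.55% of all genes). The enterocyte sums overlapped, and all 6 enterocyte markers were lower in Tas1r3-/- mice after scaling. The part of these cell types in the differences of Gpx2 and Gsr was not tested. In the ND-fed WT group the library with the lowest goblet and Paneth sum, female 1, held the highest Gpx2 value. In the WD-fed WT group female 2 held the highest value of both, at 8374 and 586 RPKM. The other marker sums overlapped between the WD-fed genotypes, smooth muscle at 548 to 3303 and 840 to 3621 RPKM and leukocytes at 30.1 to 37.4 and 16.5 to 38.2 RPKM in WT and Tas1r3-/- libraries.

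**Figure D4:**
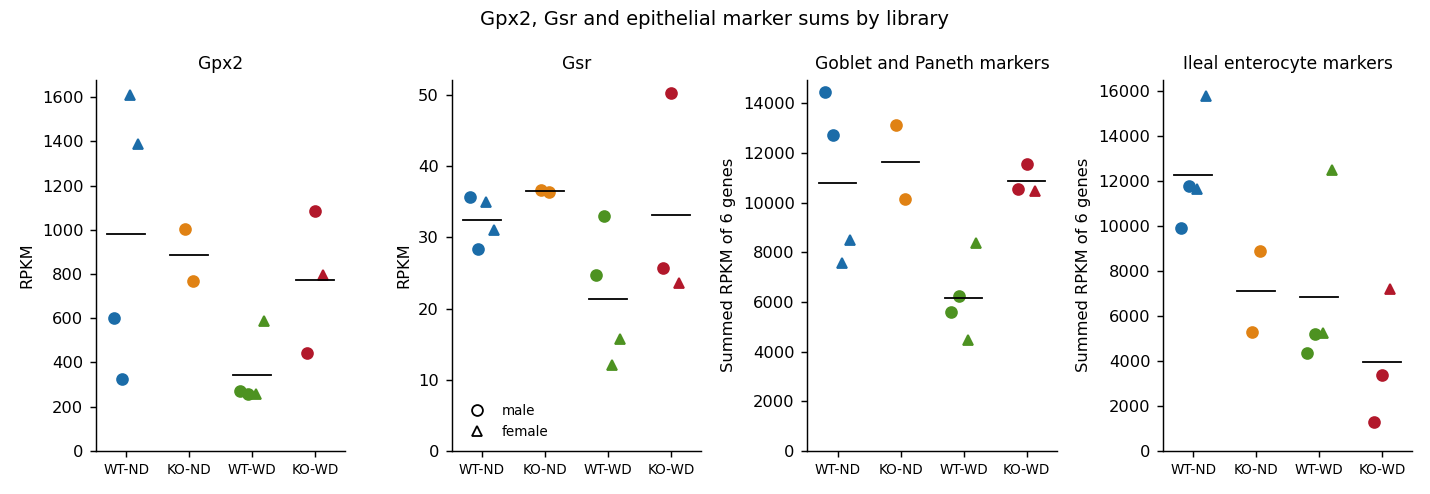
Gpx2 and Gsr in RPKM and the summed RPKM of 6 goblet and Paneth cell markers and of 6 ileal enterocyte markers, by library (circles males, triangles females, bars group means). On the WD the goblet and Paneth sums of the genotypes did not overlap, while the values of Gpx2 and Gsr did. After scaling, 4 of the 6 goblet and Paneth markers were higher and 2 lower in WD-fed Tas1r3-/- mice.

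The ratio of Gpx2 to Gpx1, chosen after the values had been seen and given without a test, does not depend on scaling between libraries. It was 1.04 to 1.56 in WD-fed WT and 2.10 to 5.32 in WD-fed Tas1r3-/- libraries, 0.992 to 3.01 in ND-fed WT libraries and 2.01 and 2.68 in ND-fed Tas1r3-/- libraries. Per library on the WD, it was 1.38, 1.52, 1.04 and 1.56 in WT and 2.10, 5.32 and 2.82 in Tas1r3-/- mice. In coding transcripts alone the WD ranges were 0.137 to 0.167 in WT and 0.171 to 0.489 in Tas1r3-/- mice, and with Gpx2-ps1 added to Gpx2 they were 1.27 to 1.99 and 2.35 to 6.17. The genotypes were apart on the WD in each of these forms, by the least in the coding transcripts, and overlapped on the ND. These forms rest on the same libraries and are not independent of each other, and Gpx2 itself overlapped between the genotypes on the WD. The share of other gene pairs apart in this way was not counted, so the separation of a ratio chosen afterwards is description only.

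On the ND, Tas1r3-/- and WT mice differed by 0.28 for Gpx2 (SE 0.633, interval −1.09 to 1.65, limma adjusted p = 0.950), by 0.34 for Gsr (SE 0.357, interval −0.43 to 1.11, limma adjusted p = 0.910) and by 0.16 for Gstp1 (SE 0.215, interval −0.30 to 0.63, limma adjusted p = 0.923, turning to −0.01 without scaling). Both Tas1r3-/- libraries were male. The difference in Gpx2 was 0.76 with sex as a covariate and 1.08 in males only (limma adjusted p = 0.995 and 0.555), and that in Gsr was 0.10 and 0.30 (limma adjusted p = 0.996 and 0.767). In deposited RPKM both Tas1r3-/- libraries lay above the 4 WT libraries for Gsr, while after scaling they overlapped. The other 7 genes ran from −0.24 (Gstk1) to 0.36 (Gstm1), with no adjusted limma p under 0.928. The count of calls was 0 (0% of all genes), as was that at an adjusted p under 0.05 (0.00525%) and at an unadjusted p under 0.05 (4.73%), and no gene of the 10 was apart on the scaled scale (8.67% of genes were apart and higher, 13.3% apart and lower). The directions were 7 higher and 3 lower, with a median of 0.21 beside 0.01 for all genes. With 2 Tas1r3-/- libraries against 4, the exact permutation test cannot go below 0.0667.

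The diet effect was then compared between genotypes by the interaction term. It was 1.02 for Gpx2 (SE 0.844, interval −0.81 to 2.85, limma adjusted p = 1.00), −0.09 for Gstp1 (SE 0.286, interval −0.71 to 0.53) and between −0.68 (Gsta1) and 0.42 (Gsr) for the other 8 genes. No gene of the 10 was called (0% of all genes), had an adjusted p under 0.05 (0%) or an unadjusted p under 0.05 (1.43%). The diet effect on Gpx2 in WT (−0.88) and in Tas1r3-/- mice (0.13) was therefore not shown to differ. The narrowest interval of the 10 genes was that of Gstp1 in each comparison, with a half-width of 0.38 for the diet in WT and 0.62 for the interaction, and the widest that of Gpx2, with 1.12 and 1.83.

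**Figure D5:**
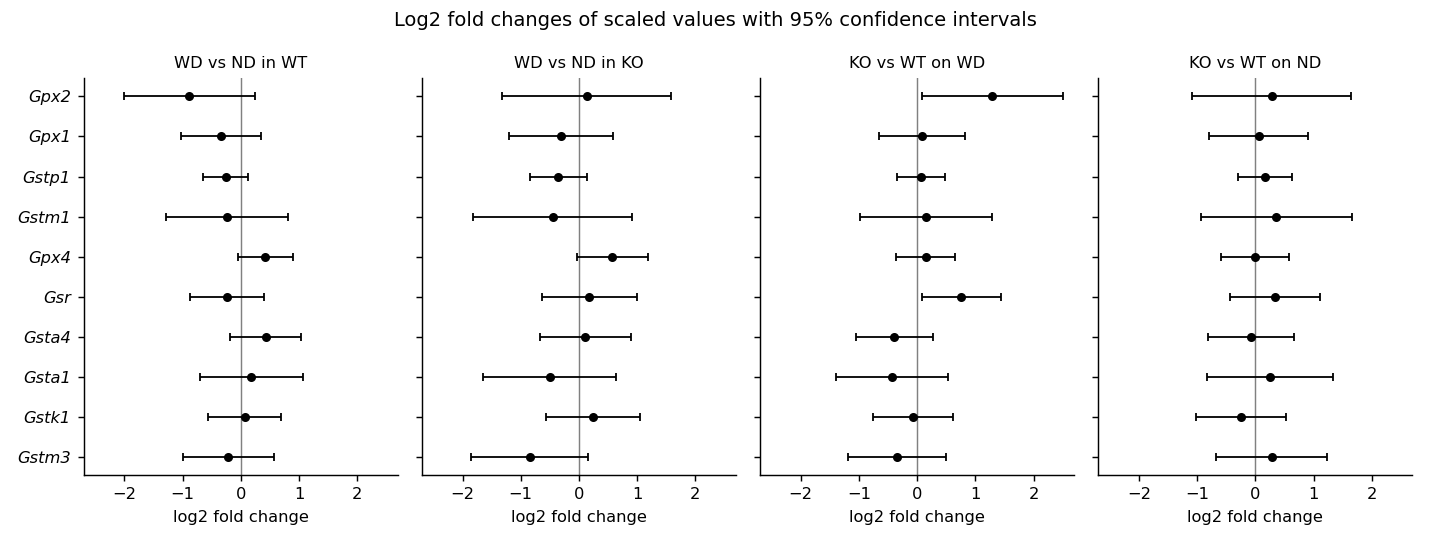
Log2 fold changes of the 10 genes with 95% confidence intervals in the 4 comparisons (WD against ND in each genotype, Tas1r3-/- (KO) against WT on each diet), from scaled log2 values. The intervals of Gpx2 and Gsr lie above 0 for Tas1r3-/- against WT on the WD before any adjustment over genes, and all others include 0.

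In the model with sex as a covariate, the coefficient of sex itself was read after the data had been seen. In that fit females exceeded males by 0.65 on the log2 scale for Gpx1 (SE 0.204, interval 0.21 to 1.10, limma adjusted p = 0.122) and by 0.96 for Gpx2 (SE 0.365, interval 0.16 to 1.76, limma adjusted p = 0.187). In Gsr the coefficient was −0.48 (SE 0.219, limma adjusted p = 0.262) and in Gsta4 −0.44 (SE 0.214, limma adjusted p = 0.289). Thus 2 of 10 genes had an unadjusted p under 0.05, beside 19.3% of all genes, and none was called, beside 0.042%. In deposited RPKM of Gpx1, both WT females exceeded both WT males on either diet, and the averaged Tas1r3-/- females exceeded both Tas1r3-/- males on the WD. Females were present in 3 of the 4 groups only, with 1 averaged library in WD-fed Tas1r3-/- mice.

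Of the other GSTs, 19 of 21 listed genes were tested. The highest were Gsto1, an omega-class GST, at 161 RPKM and the microsomal Mgst1 at 127 RPKM, above each of the 6 GSTs described here. No other GST had an adjusted p under 0.05 in any comparison. On the WD, 8 were higher and 11 lower in WT (median −0.09) and 3 higher and 16 lower in Tas1r3-/- mice (median −0.33), where Gstm7 had −1.09 (SE 0.306, limma adjusted p = 0.749). In Tas1r3-/- against WT, 4 were higher and 15 lower on the WD (median −0.17), with Gsta2 at −0.98 (limma adjusted p = 1.00), and 12 higher and 7 lower on the ND (median 0.06). Gstp2, the near copy of Gstp1, had −0.26 for the diet in WT and −0.55 in Tas1r3-/- mice. Of the other peroxidases, the secreted Gpx3 averaged 56.9 RPKM, Gpx8 of the endoplasmic reticulum 7.54 RPKM and Gpx7 3.54 RPKM. Gpx8 had a WD change of 1.05 in WT (SE 0.402, limma adjusted p = 0.243) and of 0.24 in Tas1r3-/- mice, and 0 of these 3 genes reached an adjusted p under 0.05.

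Of 12 genes for the synthesis and breakdown of glutathione, none had an adjusted p under 0.05. Gss, the synthetase that completes glutathione, had −0.52 in WT (limma adjusted p = 0.269) and −0.66 in Tas1r3-/- mice (limma adjusted p = 0.898) on the WD, and Ggct, which releases the glutamyl group in breakdown, 0.80 (limma adjusted p = 0.120) and 0.36. Of the 6 genes that supply NADPH to Gsr and other enzymes, 5 were lower on the WD in WT and all 6 in Tas1r3-/- mice (medians −0.55 and −0.31), without an adjusted p under 0.05. In WT these included Pgd of the pentose phosphate pathway (−0.80, SE 0.229, limma adjusted p = 0.148) and the cytosolic isocitrate dehydrogenase Idh1 (−0.61, limma adjusted p = 0.196). Without scaling, all genes shifted lower on the WD by the amounts given above.

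The thiol partners of the pathway held the 1 gene of these lists that passed an adjusted p of 0.05. For the WD in WT 0.116% of all genes passed it, and the lists were chosen with earlier results of these data known. Glrx5, a mitochondrial glutaredoxin of iron-sulphur cluster assembly, fell on the WD in WT by 1.16 on the scaled log2 scale (SE 0.158, limma adjusted p = 0.0304). In deposited RPKM, where WD columns summed to less as a whole, it was at 41.2, 43.7, 55.0 and 50.04 on the ND and at 14.0, 14.5, 17.2 and 15.0 on the WD. It did not pass the threshold of 0.01 for a call. In Tas1r3-/- mice its scaled change was −1.06 (SE 0.204, limma adjusted p = 0.689), and the interaction was 0.10 (SE 0.259). The deposited values there were 53.0 and 53.9 RPKM on the ND and 18.6, 20.8 and 18.2 RPKM on the WD. In both genotypes the diets did not overlap, where 6.3% of all genes were apart and lower on the WD in WT and 10.1% in Tas1r3-/- mice. Of the other 15 glutaredoxins, thioredoxins and peroxiredoxins, none had an adjusted p under 0.05. Catalase (Cat), which also removes hydrogen peroxide, had −0.76 on the WD (SE 0.328, limma adjusted p = 1.00) and −0.87 on the ND (SE 0.371, limma adjusted p = 0.895) in Tas1r3-/- against WT mice, and the other genes of its list, the 3 superoxide dismutases, did not reach an adjusted p under 0.05 either.

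The peroxidases share selenium and its insertion machinery with other selenoproteins. Of these, Selenop, the secreted selenium carrier, averaged 1348 RPKM. None of 12 other selenoproteins and none of 6 genes for selenocysteine insertion had an adjusted p under 0.05. On the WD 9 of the 12 were higher in WT and 8 in Tas1r3-/- mice, among them Selenok of the endoplasmic reticulum, with 0.64 (SE 0.171, limma adjusted p = 0.126) and 0.65 (SE 0.220, limma adjusted p = 0.858). Of the insertion factors, Trnau1ap had 0.51 and the elongation factor Eefsec −0.41 on the WD in WT (limma adjusted p = 0.276 and 0.285). The NRF2 pathway, through which electrophiles raise the transcription of many GSTs, was represented by 4 genes, none with an adjusted p under 0.05. The factor Nfe2l2 had 0.11 and −0.02 on the WD in WT and Tas1r3-/- mice, its inhibitor Keap1 −0.26 and −0.32, and the target Nqo1 0.02 and −0.54.

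The genes most like Gstp1 and Gpx2 across libraries were ranked among 10896 genes of a mean RPKM of at least 5, by the root mean square difference of centred scaled log2 values over the 13 libraries. Nearest to Gstp1 were Atp5b (0.108), Rpl10-ps5 (0.114) and Gm10175 (0.116), where the median gene lay at 0.410. Nearest to Gpx2 were Pla2g5 (0.318), Unc5cl (0.413) and its own pseudogene Gpx2-ps1 (0.421), where the median gene lay at 0.916. Gpx2-ps1 shares 50-base windows with Gpx2, so its likeness is not independent of it.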

How the data were processed

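The authors isolated total RNA from terminal ileum, selected mRNA, depleted rRNA, made Ion Total-RNA Seq libraries and processed reads in Partek Flow with STAR against GRCm38 (mm10) and Ensembl release 91 transcripts. The deposited values are RPKM per transcript, made by the authors; the library total they divided by is not given in the sources used here. The joint table and the table of each sample held the same values (largest difference 4.99e-08 RPKM).

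Transcripts (98.2% matched to GENCODE M21) were summed per gene. Libraries were scaled by trimmed means of ratios (30% of ratios and 5% of levels trimmed at each end), a pseudocount of 0.5 was added and limma 3.58.1 (R 4.3.3) was fitted to all 4 groups at once, on the 19042 genes whose RPKM reached 1 in 2 or more libraries, and tested on simulated data. In 86.5 to 87.8% of values of genes with 1 transcript, RPKM times length was whole within 0.02 reads. Genes were named by rule: the 10 genes in every comparison, and of each other list those with an adjusted p under 0.05, otherwise up to 3 with the smallest p. The genes, lists and tests were chosen with earlier results of these data known. Sums with near copies, coding transcripts alone, the sex coefficient and the Gpx2 to Gpx1 ratio were added after the data had been seen. Of the 16 columns, 3 were not counted as separate libraries. Alternatives covered scaling, pseudocount, filter, sex, replicate block and leaving out each library.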

Additional observations from a re-analysis of the deposited data

Results flagged for a closer look

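Of 20 sets of 4 WT libraries, made of the 10 genes on each diet, 1 held a library far from the others: Gpx2 was at 586 RPKM in WD-fed WT female 2 and at 257 to 271 RPKM in the other 3 libraries of that group, a gap of 0.955 of the range of the group (beyond Dixon's 95% critical value for 4 samples). Chance gives such a gap in about 1 of 20 sets. The same library held the highest summed enterocyte markers of its group (12469 RPKM, beside 4368 to 5235 RPKM), the highest sum of goblet and Paneth cell markers (8374 RPKM, beside 4457 to 6256 RPKM) and the lowest of smooth muscle markers (548 RPKM, beside 1187 to 3303 RPKM), and their part in the Gpx2 value was not tested. Without that library the log2 difference of Gpx2 between Tas1r3-/- and WT mice on the WD was 1.71, beside 1.29 with it.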

How the results depend on the processing

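In all 164 alternative counts of the 10 genes called, the count was 0. Of the 50 log2 fold changes, 18 kept their sign in every alternative and 32 did not, and 2 of 1530 alternative values had an adjusted p under 0.05, both for the WD in WT without scaling (Gstp1 and Gpx1, given above). Across alternatives, Gpx2 in Tas1r3-/- against WT on the WD ran from 1.00 to 1.71 and Gsr from 0.44 to 0.96, with smallest adjusted p of 0.576 and 0.400. For the 15 fold changes the report turns on, signs turned as follows, and the cause was not tested. Without scaling, Gpx4 for the WD in WT was −0.034, Gpx2 for the WD in Tas1r3-/- mice −0.27, and Gstp1 in Tas1r3-/- against WT −0.046 on the WD and −0.010 on the ND. In coding transcripts alone, Gstp1 was 0.27 for the WD in both genotypes and Gpx2 −0.054 for the WD in Tas1r3-/- mice. With near copies summed, the sum for Gpx4 was −0.23 for the WD in WT. The sum for Gstp1 was −0.014 in Tas1r3-/- against WT on the WD. In both sums the copies held more RPKM than the gene itself. With sex as a covariate Gpx2 was −0.19 for the WD in Tas1r3-/- mice, and in males only the Gstp1 interaction was 0.11. Leaving out each library in turn, Gpx2 ran from −0.25 to 0.51 for the WD in Tas1r3-/- mice and from −0.11 to 0.67 in Tas1r3-/- against WT on the ND, and Gstp1 from −0.031 to 0.21 in Tas1r3-/- against WT on the WD and from −0.20 to 0.027 for the interaction. The number of all genes called for the WD in WT was 1, but 539 without scaling and 33 with all 16 columns as labelled.

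With a replicate block (sex and number as labelled), 0 of the 10 genes were called, Gpx2 was 1.63 and Gsr 0.75 in Tas1r3-/- against WT on the WD, Gpx2 was −0.072 for the WD in Tas1r3-/- mice and 0.81 in Tas1r3-/- against WT on the ND. Deviations of same-numbered libraries correlated at −0.20 to 0.57 (median 0.07, 7 of 16 pairs above 0.1) and those of other libraries at −0.63 to 0.63 (median −0.03, 12 of 46 above 0.1). Of the 16, 9 did not exceed 0.1. These correlations cannot decide whether the numbers pair the libraries, as the 2 ND-fed Tas1r3-/- libraries deviate as mirror images of each other. The main fit took the libraries as unpaired, and the block is given as an alternative.

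With 2 to 4 libraries per group, 95% intervals of 2 to 5 of the 10 genes per comparison stayed within a 2-fold change.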
